A study of Mus musculus with 12 samples.

Results

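The genes described here are 44 ribosome biogenesis and nucleolar factors, chosen by name for what their proteins do, out of 21669 transcript names counted in each library. No measured value set the list, but earlier results of these data were known when these genes were chosen. They act in RNA polymerase I transcription, in small nucleolar RNA particles (snoRNPs), in assembly of the 40S and 60S ribosomal subunits and, for *Grwd1*, as a chaperone of the ribosomal protein Rpl3. Footprints and RNA of these genes were measured in the left ventricle of adult mice, wild type (WT) or Rpl3l-/- (KO). *Rpl3l* is the striated-muscle paralog of *Rpl3*. Ventricle was homogenised in cycloheximide buffer. Part of the lysate was digested with RNase I to leave ribosome-protected fragments (RPF), and polyadenylated RNA was sequenced from undigested lysate. There were 3 libraries in each of 4 groups (RNA WT, RNA KO, RPF WT, RPF KO), described by the series as biological triplicates. Strain, age and sex are not given in the sources used here, and the label names the tissue only as adult heart.

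Ribosomes are built mainly in the nucleolus. RNA polymerase I makes a long precursor that the small-subunit processome and the snoRNPs fold, modify and cleave, and separate sets of factors then carry the pre-40S and pre-60S particles through the nucleus to the cytoplasm. Adult heart muscle cells rarely divide, but they keep making ribosomes, and production rises during cardiac growth. Rpl3 is an early component of the large subunit, and Grwd1 binds newly made Rpl3 before it is incorporated.

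Promoter windows around an E-box, the motif CACGTG that Myc and Max proteins are known to bind, are shown because Myc is a known regulator of ribosome biogenesis genes. RefSeq promoter sequences (GRCm38.p6, 250 bases before to 50 after the start) matched 37 of the 44 genes. The motif reads the same on both strands and was the only motif searched. It occurred in 10 of the 37 promoters (27.0%), against 8.09% of 27025 gene symbols with a promoter of the same length and 12.1% of the 8841 symbols tested in RPF. In the 6 examples below the motif is in capitals and lies within 50 bases after the start. They are written 5′ to 3′ on the strand of the gene.
Grwd1: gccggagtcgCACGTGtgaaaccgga
Pes1: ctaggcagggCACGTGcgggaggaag
Wdr43: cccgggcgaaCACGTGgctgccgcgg
Tsr1: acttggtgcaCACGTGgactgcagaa
Utp20: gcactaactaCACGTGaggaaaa
Mybbp1a: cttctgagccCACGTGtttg
The windows are chr7:45830740-45830765 (minus strand) for *Grwd1*, chr11:3963967-3963992 (plus) for *Pes1* and chr17:71616222-71616247 (plus) for *Wdr43*. Those of the other genes shown are chr11:74898094-74898119 (plus) for *Tsr1*, chr10:88826765-88826787 (minus) for *Utp20* and chr11:72441357-72441376 (plus) for *Mybbp1a*, where the last 2 stop at the end of the promoter sequence. The promoters of *Ltv1*, *Nmd3*, *Nop2* and *Utp4* also held the motif. A match is a stretch of letters and not a measured binding site.

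RNA libraries held 6635242 to 8459004 counts and RPF libraries 3827862 to 7474602. Mitochondrially encoded transcripts took 49.84 to 58.24% of RNA counts and 2.28 to 5.22% of RPF counts, so nuclear genes were read at a lower depth in RNA. The 44 genes together held 6592 to 9276 counts per RNA library and 7144 to 13437 per RPF library. No member was at 0 in any library, and all 44 passed the low-count filter in both assays. *Rpl3l* fell in KO, with a log2 difference of -3.10 in RNA (adjusted p = 8.2e-05, edgeR's quasi-likelihood test) and -4.76 in RPF (adjusted p = 2.5e-07). Some *Rpl3l* signal remained in KO 1 to 3, at 74.1, 84.4 and 81.4 CPM of RNA and 5.07, 2.55 and 7.41 CPM of RPF. Markers of ventricular muscle were abundant in every library, and no marker of the 8 cell types examined was at 0 throughout a group. The first principal component of the RNA libraries (54% of variance) set WT 1, WT 2 and KO 2 apart from WT 3, KO 1 and KO 3, and that of the RPF libraries (34.7%) set WT 1 apart from the other 5. The part of this spread in the results below was not tested beyond leaving out each library in turn.

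Levels are given in CPM (counts scaled to a common library size), set so that RNA and RPF values of a gene can be set side by side. A count of 3, taken as the detection floor, is worth 0.552 to 0.817 CPM in an RNA library and 0.234 to 0.458 CPM in an RPF library, counting error only. Most of these genes lay above the median level of all features in both assays. Per kilobase of transcript, their median RNA level in WT was 8.48 CPM, against 4.26 over all 8311 features with a transcript length, and 31 of 44 were above that value. The lowest was *Tsr1* at 0.933 CPM per kilobase and the highest *Npm1* at 97.0. Per kilobase of coding sequence, the median RPF level in WT was 9.66 CPM, against 7.73 over all 11064 features. *Heatr1*, a very long scaffold of the small-subunit processome, was lowest at 2.22, and *Nop10*, the smallest core protein of H/ACA snoRNPs, was highest at 165. The *Nop10* value rests on a coding sequence of 195 bases. Before scaling by length its mean RPF level in WT was 32.2 CPM, below *Ncl* at 94.0. The region counted is not given in the sources used here, so the lengths used for these levels are assumed. The summed RNA level of the 44 genes was 2065, 1882 and 1752 CPM in WT 1 to 3 and 1770, 1984 and 1707 CPM in KO 1 to 3. Summed RPF was 1003, 1091 and 1066 CPM in WT and 1049, 1055 and 1017 CPM in KO. The genotypes overlapped in both sums.

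**Figure D1:**
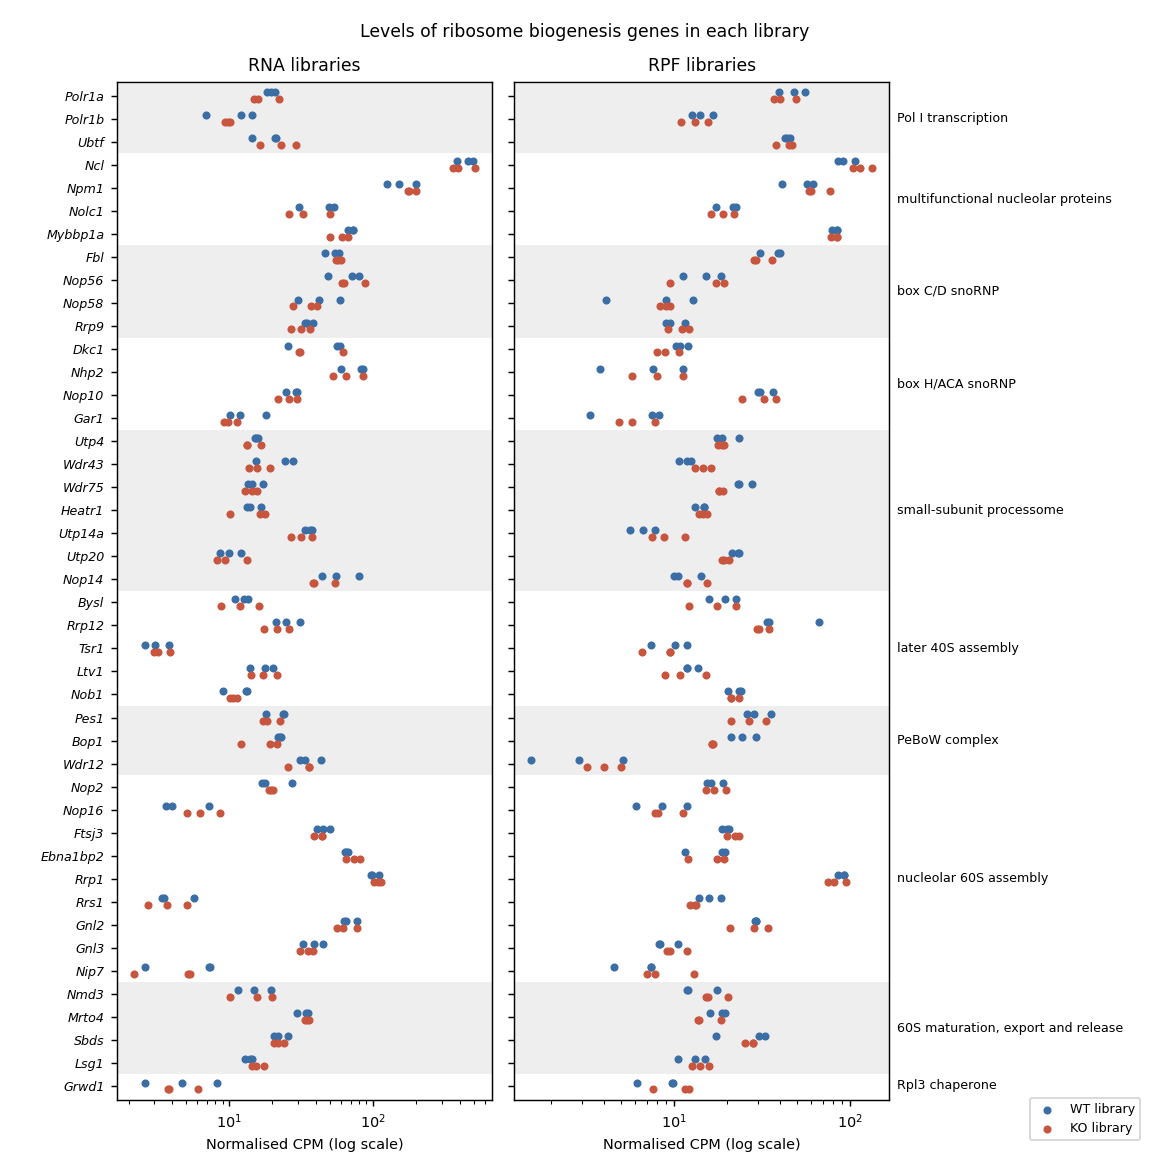
Normalised CPM (log axis) of the 44 genes in each RNA library (left) and RPF library (right), with 1 point per library, WT in blue and KO in red, and genes grouped by role. WT and KO points overlap for most genes, and *Ncl* and *Npm1* have the most RNA.

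The first question was whether RNA of these genes differed between WT and KO ventricle. No member passed the test. With edgeR's quasi-likelihood test, 0 of 44 had an adjusted p below 0.05, where 1 of 8379 features (0.0119%) did, namely *Rpl3l*. None had an unadjusted p below 0.05, against 2.54% of all features. DESeq2 also called 0, with 0 at an unadjusted p below 0.05. The edgeR count at an unadjusted p below 0.05 was 5 without WT 3 and 3 without KO 2. The 2.54% belongs to the fit of all 6 RNA libraries. No such share is given here for the fits that left a library out. Point estimates lay lower in KO for 31 and higher for 13, with a median of -0.11 on the log2 scale. Over all features the median was -0.01, and 4111 of 8379 were higher. The members' median ran from -0.12 to -0.03 as libraries were left out, with -0.03 without WT 1. Standard errors of the members ran from 0.16 to 0.44. In bulk tissue, fewer cells of a type and less RNA per cell cannot be told apart. The 6 macrophage markers summed to 327 to 351 CPM in RNA of WT and 283 to 313 in KO, the 6 endothelial markers to 320 to 346 and 346 to 410. In RNA the 4 atrial muscle markers had the largest median difference of the 8 lists, at 0.63 on the log2 scale, with 4 of 4 higher in KO and 3 at an unadjusted p below 0.05. In RPF their median was 0.27, with 2 at such a p. Their sums overlapped, at 3056 to 4754 CPM in RNA of WT and 3731 to 7518 in KO. The part of these markers in the members' values was not tested.

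RNA polymerase I genes were alike in showing overlapping groups. *Polr1a*, the largest catalytic subunit, had 20.8, 19.4 and 18.3 CPM of RNA in WT 1 to 3 and 15.8, 22.3 and 14.9 in KO. *Polr1b*, the second catalytic subunit, had 14.3, 12 and 6.86 in WT and 10.2, 9.80 and 9.39 in KO. *Ubtf*, the factor that keeps ribosomal DNA open for polymerase I, had 14.3, 20.8 and 21.1 in WT and 23.1, 16.3 and 29.1 in KO. The log2 differences were -0.15 (SE 0.21), -0.16 (SE 0.28) and 0.29 (SE 0.25), each with an adjusted p of 0.9990 by edgeR's quasi-likelihood test.

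The most abundant RNAs belonged to *Ncl* (nucleolin, which binds precursor rRNA) and *Npm1* (nucleophosmin, a chaperone of the outer nucleolus). *Ncl* RNA was 497, 457 and 381 CPM in WT and 362, 510 and 388 in KO. *Npm1* RNA was 151, 125 and 198 in WT and 200, 175 and 179 in KO. Neither separated the genotypes, at -0.08 (SE 0.19) and 0.22 (SE 0.20). *Mybbp1a*, a Myb-binding protein of the nucleolus, was lower in each KO library (67.1, 61.0 and 50.2 CPM) than in each WT library (72.2, 72.0 and 67.2), with an estimate of -0.25 (SE 0.17). Its transcript shares 131 exonic bases with *Spns2* on the opposite strand, and whether the counting used strand is not given.

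The lowest unadjusted p-values in RNA were those of *Wdr43* and *Nop14*, both of the small-subunit processome, and *Gar1*, a core H/ACA protein, among the lower genes. *Wdr43* RNA was 27.6, 24.6 and 15.4 CPM in WT and 15.6, 19.1 and 13.8 in KO, a difference of -0.48 (SE 0.25, unadjusted p = 0.083 by edgeR's quasi-likelihood test). *Nop14* was 79.7, 55.2 and 44.4 in WT and 38.7, 54.5 and 38.5 in KO (-0.45, SE 0.24). *Gar1* was 10.2, 11.8 and 17.9 in WT and 9.13, 11.4 and 9.75 in KO (-0.41, SE 0.26). In each of these the groups overlapped, and WT 3 alone was highest for *Gar1*, whose difference was -0.13 without it. *Wdr43* and *Nop14* RNA was highest in WT 1, WT 2 and KO 2, the libraries set apart by the first principal component. As libraries were left out, their differences ran from -0.70 to -0.31 and from -0.63 to -0.18, smallest in size without WT 1. Among the higher genes, *Nop16*, a 60S assembly factor, was at 3.65, 4.01 and 7.24 CPM in WT and 5.10, 6.26 and 8.65 in KO (0.42, SE 0.34). Genes whose 3 KO libraries all lay above the 3 WT libraries numbered 1 of 44, where 4.14% of features did: *Lsg1*, a cytoplasmic GTPase that releases Nmd3 from the 60S subunit, at 15.3, 14.4 and 17.5 CPM against 12.8, 13.9 and 14.3. Those lying below numbered 2, *Mybbp1a* and *Bop1*, where 3.19% of features did.

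Footprints were compared in the same way, and again no member passed the test. The count was 0 of 44 with an adjusted p below 0.05 by edgeR's quasi-likelihood test, where *Rpl3l* was the 1 call among 11153 features (0.00897%). DESeq2 called 0. At an unadjusted p below 0.05 there were 4 members by edgeR and 4 by DESeq2, where 5.96% of all features had such a p in edgeR. Of the 4 by edgeR, *Bop1*, *Wdr75* and *Rrp12* were lower in KO and *Ncl* was higher. This count was 1 without KO 1 or without KO 2, and 2 without WT 2 or without KO 3. The share of all features in those fits is not given here. Estimates were lower in KO for 24 and higher for 20, with a median of -0.02 against 0.00 over all features. Of all features, 5599 of 11153 (50.2%) were higher.

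*Bop1* showed the lowest p in RPF. It encodes a subunit of the PeBoW complex, with Pes1 and Wdr12, which is needed to mature the large-subunit rRNA. It lies at chr15:76452989-76477277 on the minus strand (GRCm38, GENCODE M21), where its name matches a 16-exon transcript. Its RPF level was 29.3, 24.4 and 21.0 CPM in WT 1 to 3 and 16.4, 16.4 and 16.6 in KO 1 to 3. Every KO library was below every WT library. The difference was -0.60 (SE 0.19, unadjusted p = 0.0069, adjusted p = 0.834, edgeR's quasi-likelihood test), and it ran from -0.71 to -0.46 as libraries were left out, with -0.46 without WT 1, the library that stood apart. Its RNA was 22.9, 22 and 22.5 CPM in WT and 21.5, 12 and 19.1 in KO, also without overlap, at -0.35 (SE 0.23). The transcript shares 50 exonic bases with *Mroh1* on the opposite strand, and whether the counting used strand is not given in the sources used here.

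The partners of *Bop1* did not show the same values. *Pes1* had 26.0, 35.3 and 28.3 CPM of RPF in WT and 21.1, 26.5 and 33.3 in KO (-0.15, SE 0.20). *Wdr12* had 1.55, 2.90 and 5.15 in WT and 3.20, 3.99 and 4.98 in KO (0.33, SE 0.48). Both overlapped between genotypes, and *Wdr12* rested on 13 to 47 counts per library. In RNA, *Pes1* was at 18.0, 24.1 and 23.6 CPM in WT and 17.2, 18.2 and 22.5 in KO, and *Wdr12* at 43.8, 33.8 and 30.9 and at 36.0, 25.6 and 36.1.

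Among 40S factors, *Wdr75*, a processome subunit that binds the start of the precursor, had 27.5, 23.2 and 23.0 CPM of RPF in WT and 18.0, 19.0 and 18.0 in KO, without overlap (-0.43, SE 0.18). *Rrp12*, which helps export pre-40S particles, had 34.6, 66.4 and 33.7 in WT and 34.7, 30.2 and 29.4 in KO (-0.51, SE 0.23). Its difference was -0.11 without WT 2, the highest library. *Utp20*, a scaffold of the processome, had 23.5, 22.9 and 21.4 in WT and 20.5, 19.1 and 18.7 in KO, without overlap (-0.22, SE 0.18). *Wdr43* footprints were higher in each KO library (16.2, 14.5 and 13.2 CPM) than in each WT library (12.4, 10.7 and 11.9), at 0.33 (SE 0.21). All 5 later 40S genes had estimates below 0, and none passed the test. Their estimates ran from -0.51 for *Rrp12* to -0.04 for *Nob1*, the nuclease that makes the final cut of the small-subunit rRNA. Apart from *Rrp12*, each was smaller in size than its SE. Over all features, 50.2% had an RPF estimate above 0.

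*Ncl* footprints were 85.0, 90.7 and 106 CPM in WT and 113, 133 and 103 in KO (0.31, SE 0.15, unadjusted p = 0.049). KO 3 lay below WT 3, so the groups overlapped. *Npm1* footprints ran at 40.9, 57.1 and 61.4 CPM in WT and at 58.5, 76.4 and 60.1 in KO (0.29, SE 0.18). *Nip7*, a small 60S factor, had 7.39, 4.58 and 7.35 in WT and 12.9, 7.05 and 7.77 in KO (0.52, SE 0.32), and was at 0.20 without KO 1. *Fbl*, the methyltransferase of box C/D snoRNPs, had 30.7, 38.8 and 39.8 in WT and 36.1, 28.3 and 29.3 in KO (-0.22, SE 0.17), with RNA of 58.4, 54.1 and 46.5 in WT and 56.7, 55.0 and 59.6 in KO. *Rrs1*, which helps place 5S RNA in the 60S particle, had 13.8, 18.5 and 15.7 in WT and 13.2, 12.3 and 13.4 in KO, the closest libraries being WT 1 and KO 3. In all, 1 member (*Wdr43*) had every KO library above every WT library in RPF, where 6.27% of features did, and 4 (*Bop1*, *Rrs1*, *Utp20* and *Wdr75*) had every one below, where 5.77% did.

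*Grwd1*, through its client Rpl3, is the member closest to the family of the knocked-out gene. It lies at chr7:45825223-45830944 on the minus strand. Its RNA was low, at 4.69, 2.60 and 8.19 CPM in WT and 3.76, 3.81 and 6.07 in KO, on 11 to 43 counts. Its footprints were 9.89, 9.77 and 6.13 CPM in WT and 12.1, 7.64 and 11.5 in KO. WT and KO overlapped in both. The estimates were -0.18 (SE 0.42) in RNA and 0.28 (SE 0.28) in RPF, neither called. The RNA estimate turned to 0.36 without WT 3. *Rpl3* itself had 830, 850 and 696 CPM of RNA in WT and 1149, 1389 and 1147 in KO, without overlap. The difference was 0.63 (SE 0.18), with an unadjusted p of 0.0047 and an adjusted p of 0.9990 by edgeR's quasi-likelihood test. Footprints of *Rpl3* differed by 0.62 (SE 0.22, unadjusted p = 0.012, adjusted p = 0.834, same test).

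**Figure D2:**
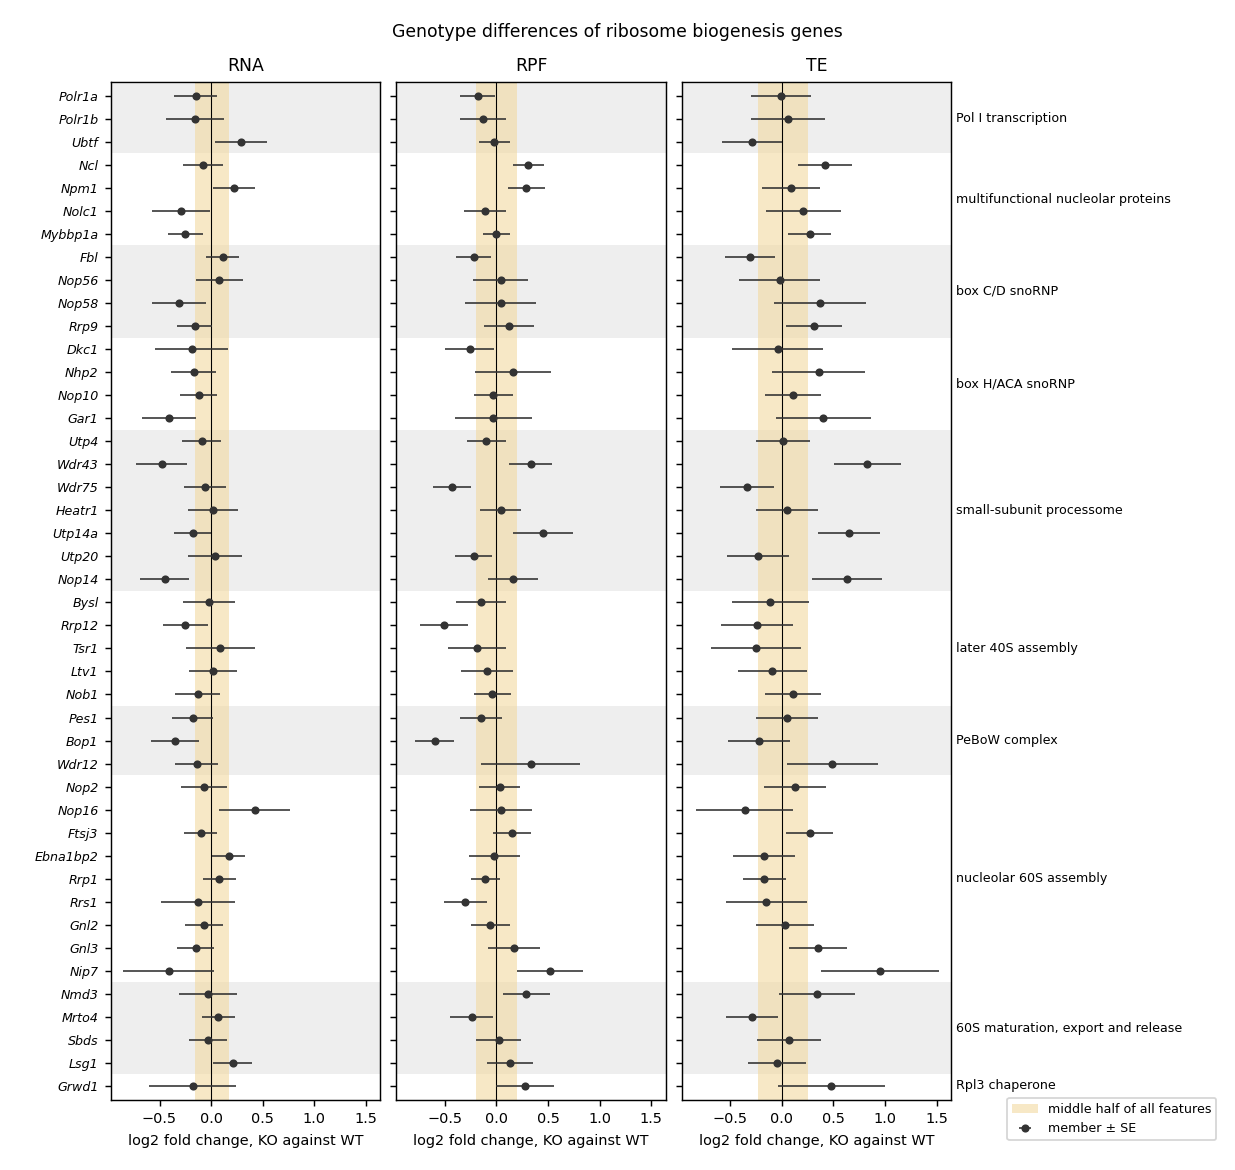
Log2 fold change of KO against WT (x axis) with its SE for each of the 44 genes in RNA, RPF and TE, with the interquartile range of all tested features shaded. No gene passed the test in any panel. *Bop1* in RPF (-0.60) and *Wdr43* in TE (0.83) are among several genes that lie outside the shading by more than their SE.

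Translational efficiency (TE), the footprints of a gene relative to its RNA, was compared between genotypes in a joint fit of the 12 libraries, through its assay-by-genotype term. By edgeR's quasi-likelihood test 0 of 44 members passed, as did 0 of 8044 features (0%), and DESeq2 called 0 members. At an unadjusted p below 0.05 there were 2 members by edgeR, against 3.73% of features, and 1 by DESeq2. The edgeR count was 5 without WT 3 and 0 without WT 1, WT 2, KO 1 or KO 3. The 3.73% belongs to the fit of all 12 libraries, and no such share is given here for the fits with libraries left out. The median was 0.05, with 26 of 44 above 0. Over all features the median was 0.01, and 4160 of 8044 (51.7%) were above 0.

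The 2 genes were *Wdr43* (0.83, SE 0.32, unadjusted p = 0.020) and *Utp14a* (0.65, SE 0.30, unadjusted p = 0.047), both in the processome. *Utp14a*, a partner of the helicase that dismantles the processome, had 6.67, 5.65 and 7.84 CPM of RPF in WT and 8.82, 7.47 and 11.5 in KO. Its RNA was 33.6, 36.6 and 37.9 in WT and 31.4, 37.8 and 26.9 in KO. For *Wdr43* the RNA estimate was below 0 and the RPF estimate above 0, and neither alone had an unadjusted p below 0.05. *Nop14* came next among the higher genes (0.63, SE 0.34), at 0.27 without WT 1 and 1.00 without WT 3. On the lower side stood *Wdr75* (-0.34, SE 0.26), *Fbl* (-0.31, SE 0.24) and *Mrto4* (-0.29, SE 0.25), which holds the place of the ribosomal stalk during 60S maturation. *Wdr75* RNA was 14.3, 17.2 and 13.5 CPM in WT and 12.9, 14.4 and 15.6 in KO, with overlap, unlike its footprints. *Mrto4* RNA was 34.1, 29.7 and 35.4 CPM in WT and 34.9, 33.5 and 35.7 in KO, and its RPF 19.4, 16 and 18.7 in WT and 13.7, 13.9 and 18.5 in KO. *Grwd1* had 0.48 (SE 0.52), and -0.24 without WT 3.

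Within a genotype, members differed widely in how many footprints they had for their RNA. This ratio is relative to the typical feature, which is near 0 by the scaling, and it depends on transcript length and on the region counted, which is not given in the sources used here. In WT, 9 of 44 were called higher in RPF than RNA by edgeR's quasi-likelihood test, against 36.8% of all features, and 19 were called lower, against 34.5%. In KO, 10 were higher (38.5% of features) and 19 lower (35.5%). The median ratio was -0.19 in WT and -0.13 in KO on the log2 scale, beside 0.04 and 0.08 over all features. The libraries of the 2 genotypes are separate, and 7 of 44 members were called higher in both, against 34.6% of all features, and 18 were called lower in both, against 32.0%. WT and KO ratios had a Pearson r of 0.97 over the 44 members and 0.98 over 7981 features. With the replicate block, 12 members in place of 10 were called higher in KO. *Bysl* and *Wdr75* were called higher in WT only, *Grwd1*, *Mybbp1a* and *Nip7* higher in KO only, *Wdr43* lower in WT only and *Ltv1* lower in KO only. The interaction passed the test for none of these 7. Without the low-count filter the WT split was 5 higher and 22 lower. With a mean of at least 50 counts it was 12 and 14 of 35 members. The shares above belong to the main fits, and none is given here for the replicate block or these filters. The median ratio of all features in WT was 0.15 without the filter and 0.00 with a mean of at least 50 counts.

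Ratios are given by role, and no test compared the roles. For the counts by role below, 34.5% of all features were called lower and 36.8% higher in WT. In KO these shares were 35.5% and 38.5%, and in both genotypes 32.0% and 34.6%. The 4 box C/D genes encode proteins of particles whose snoRNAs guide methylation of ribosomal RNA or, for the U3 particle of Rrp9, its cleavage. All 4 were called lower in RPF than RNA: *Nop58* at -2.34 (SE 0.37), *Nop56* at -2.19, *Rrp9* at -1.84 and *Fbl* at -0.56 in WT, and each was called lower in KO too. *Nop58* had 59.2, 41.8 and 29.9 CPM of RNA and 12.8, 4.12 and 8.94 CPM of RPF in WT. In KO its RNA was 36.8, 41.1 and 27.8 and its RPF 8.35, 9.43 and 8.99. The RNA of *Nop58* exceeded its footprints in every pair of values.

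Of the 4 proteins of H/ACA particles, whose snoRNAs guide pseudouridine formation, 3 were called lower in both genotypes. *Nhp2* was lowest at -3.37 (SE 0.33), followed by *Dkc1*, the pseudouridine synthase, at -2.10 and *Gar1* at -1.11. *Nhp2* had 85.5, 82.9 and 59.6 CPM of RNA and 3.81, 11.3 and 7.60 CPM of RPF in WT, and 64.7, 85.5 and 53.0 of RNA and 11.3, 5.78 and 8.01 of RPF in KO. *Nop10*, the fourth, was at 0.18 (SE 0.20) and not called. Of the multifunctional proteins, *Ncl* (-2.27, SE 0.20), *Npm1* (-1.60) and *Nolc1* (-1.15), which shuttles between nucleolus and Cajal body, were called lower in both genotypes.

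Of the 5 later 40S genes, 4 were called higher in WT: *Tsr1*, a GTPase-like factor of late pre-40S particles, at 1.58 (SE 0.34), *Nob1* at 0.90, *Rrp12* at 0.77 and *Bysl* at 0.62. *Ltv1*, which accompanies pre-40S particles, was at -0.50 and not called. In KO 3 of the 5 were called higher, *Bysl* was not called (0.52), and *Ltv1* was called lower (-0.57). *Tsr1* had 2.61, 3.07 and 3.81 CPM of RNA and 10.1, 11.8 and 7.35 of RPF in WT, and 3.22, 3.0 and 3.87 of RNA and 9.45, 9.51 and 6.56 of RPF in KO. Its transcript shares 1159 exonic bases with *Srr* on the opposite strand, so its reads and those of *Srr* cannot be told apart without strand. The *Bysl* transcript shares 361 such bases with *Ccnd3*, with the same limit. *Polr1a* (1.26, SE 0.21) and *Ubtf* (1.20, SE 0.21) were called higher in both genotypes. *Polr1a* had 39.4, 55.4 and 48.0 CPM of RPF in WT and 36.7, 49.1 and 40.1 in KO, and *Ubtf* 43.6, 45.5 and 42.6 and 46.6, 44.7 and 38.0. *Polr1b*, at 0.37 (SE 0.29), was not called, with 12.6, 16.6 and 14.1 CPM of RPF in WT and 10.9, 13.2 and 15.5 in KO.

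The processome genes spanned both sides. *Utp20* was at 1.12 (SE 0.23) in WT, from RNA of 8.60, 12 and 9.90 CPM in WT and 9.40, 8.17 and 13.4 in KO. *Utp14a* (-2.44, SE 0.23) and *Nop14* (-2.38, SE 0.26) were among the lowest, with *Nop14* footprints at 10.0, 10.5 and 14.3 CPM in WT and 11.8, 11.9 and 15.4 in KO. *Heatr1* (-0.06) and *Utp4* (0.34) were not called. Subunits of the same particle therefore stood at both ends of the range, and no test of one gene against another was made.

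The 60S genes held both extremes of the ratio before any scaling by length. *Rrs1* was highest, at 1.90 (SE 0.30), with 5.73, 3.54 and 3.43 CPM of RNA in WT and 5.10, 2.72 and 3.68 in KO. *Wdr12* was lowest, at -3.51 (SE 0.36) in WT and -3.01 (SE 0.24) in KO. *Bop1* and *Pes1*, its partners in PeBoW, were at 0.13 (SE 0.21) and 0.42 (SE 0.22) in WT and were not called. Among the other nucleolar 60S genes, *Gnl3* (-2.12), *Ebna1bp2* (-1.99), *Gnl2* (-1.26) and *Ftsj3* (-1.22), an rRNA methyltransferase, were called lower in both genotypes. Of the genes of 60S maturation, export and release, *Mrto4* was called lower (-0.90). *Nmd3*, the export adaptor, and *Lsg1* were at -0.17 and -0.11 in WT and were not called. *Sbds*, which helps release the factor eIF6 from 60S subunits, was at 0.22 in WT and was not called.

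**Figure D3:**
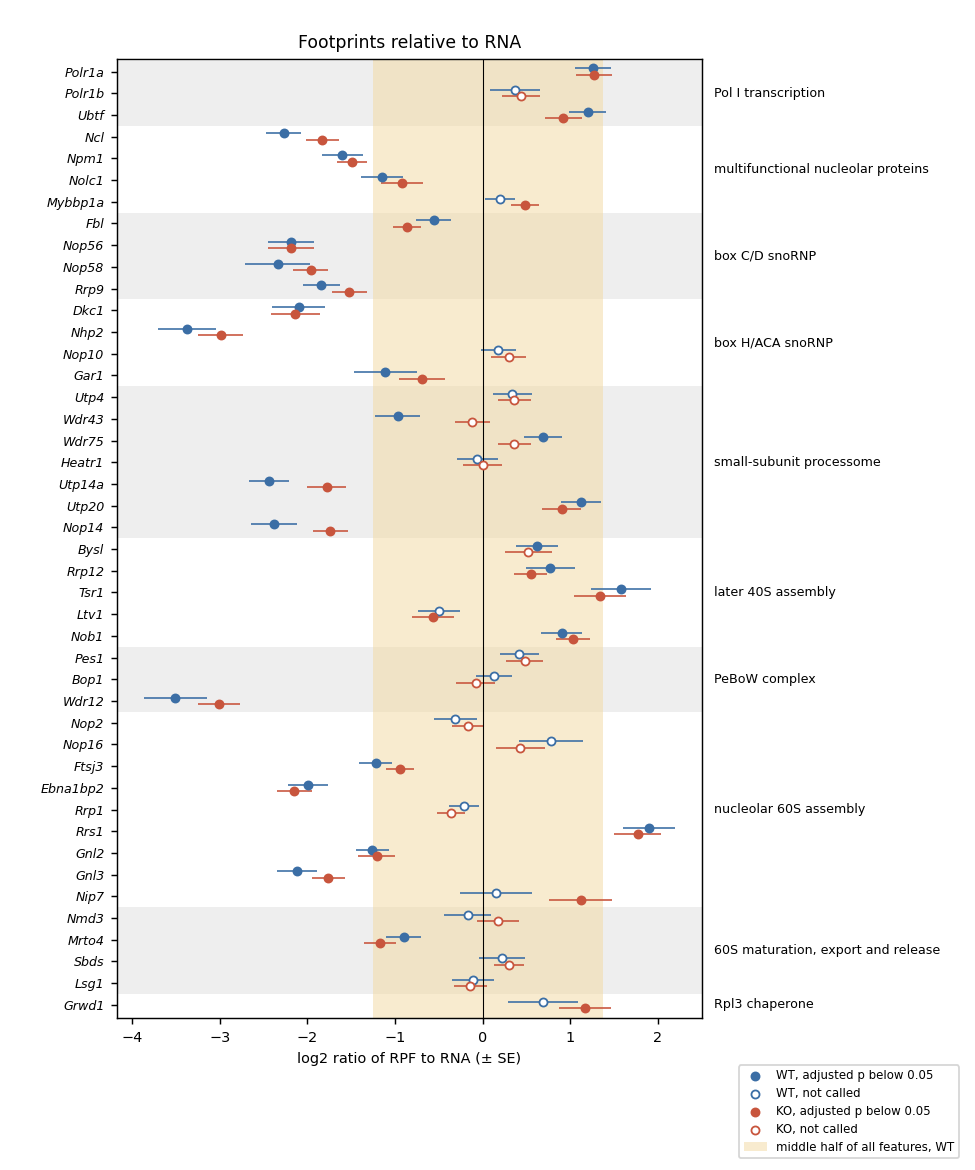
Log2 ratio of RPF to RNA (x axis, with SE) for each gene in WT (blue) and KO (red), with filled points for an adjusted p below 0.05 and the interquartile range of all features in WT shaded. Box C/D genes lie left of 0, *Rrs1* is highest at 1.90 and *Wdr12* lowest at -3.51 in WT.

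The coding share of the counted transcript differs between these genes. The ratio was therefore also set per length, with RPF per coding base and RNA per transcript base. This scaling assumes that RPF counts fell in the coding sequence and RNA counts across the whole transcript. The region counted is not given in the sources used here, so values per length hold only under that assumption. *Wdr12* has a transcript of 10012 bases of which 12.7% is coding. Per length, its ratio in WT was -0.53 in place of -3.51, and that of *Ncl* (25.9% coding) was -0.32 in place of -2.27. The lowest per length were then *Nop14* and *Utp14a*, both at -2.32, and *Nhp2* at -2.19, and *Rrs1* remained highest at 2.80. The median coding share was 69.5% over the members and 58.0% over all features. Per length, the median ratio of the members was 0.21 and that of all 7981 features was 0.97, and 14 of the 44 lay above the latter. Across the 44 genes the ratio and the log2 coding share had a Pearson r of 0.10 and a Spearman rho of -0.03, a description over genes that share libraries. Over all 7981 features they were -0.12 and -0.16.

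The spans of 7 members hold snoRNA genes on the same strand in GENCODE M21, 21 of them in all. The hosts are *Ncl*, *Nop56*, *Nop58*, *Dkc1*, *Wdr43*, *Tsr1* and *Gnl3*, and 3 of these (*Nop56*, *Nop58* and *Dkc1*) encode snoRNP proteins. Hosts made up 15.9% of the members and 1.93% of the 7990 matched features. In WT, 6 of the 7 were called lower in RPF than RNA and *Tsr1* was called higher, with a median ratio of -2.12. Of all features, 34.5% were called lower and 36.8% higher in WT. The 37 members without a snoRNA gene had a median of -0.06, and all 154 hosts had a median of -0.51, of which 74 were called lower and 52 higher. In KO 5 of the 7 were called lower and 1 higher, against 35.5% and 38.5% of all features. The KO medians were -1.83 for the 7, -0.00 for the 37 members without a snoRNA gene and -0.30 for all hosts.

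**Figure D4:**
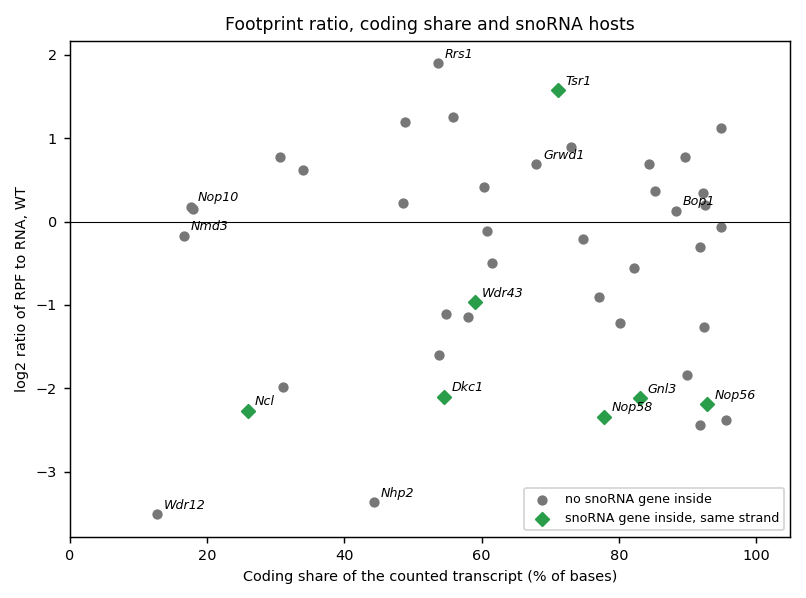
Log2 ratio of RPF to RNA in WT (y axis) against the coding share of the counted transcript in percent (x axis), with 1 point per gene and green diamonds for genes holding a snoRNA gene. Of the 7 hosts 6 lie below 0, at coding shares from low (*Ncl*) to high (*Nop56*), and *Tsr1* lies above.

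The E-box shown at the outset was compared with the values. The 10 genes with the motif had a median difference between KO and WT of -0.08 in RNA and -0.04 in RPF, and the 27 without it had -0.13 and 0.04. Their median ratio of RPF to RNA in WT was 0.27 with the motif and -1.11 without. *Tsr1* (1.58) and *Wdr43* (-0.97) were the extremes among the 10, so genes with the motif lay on both sides of 0.

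Other genes of the pathway were drawn from lists of 12 polymerase I factors, 49 further 90S and 40S factors and 49 further 60S factors. None was called between genotypes in RNA, RPF or TE by edgeR's quasi-likelihood test. At an unadjusted p below 0.05, RNA gave *Nol12* lower among 47 60S factors tested, and *Nol6* and *Nol10* higher and *Wdr3* lower among 48 90S and 40S factors. RPF gave *Ddx18* and *Senp3* higher and *Pelp1*, *Wdr74* and *Zfp622* lower among 60S factors, with *Dcaf13* higher and *Wdr46* lower among 90S and 40S factors. TE gave *Dcaf13*, *Mphosph10* and *Wdr3* higher and *Nol6* lower. *Wdr74* footprints, for a 60S factor that works with the ATPase Nvl, differed by -0.68 (SE 0.24). The polymerase I list gave none in any of these comparisons. Shares of all features at such a p were 2.54% in RNA, 5.96% in RPF and 3.73% in TE. For the ratio of RPF to RNA in WT, 31 of 47 further 60S factors were called lower and 6 higher, with a median of -0.92, while the further 90S and 40S factors split into 18 lower and 13 higher of 48, with a median of 0.20. Of 10 polymerase I factors tested, 6 were lower and 1 was higher, unlike *Polr1a* and *Ubtf*. Beside these counts, 34.5% of all features were called lower and 36.8% higher in WT.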

How the data were processed

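The deposited values are raw counts that the authors obtained for each transcript name. Per the submitters' processing notes, cutadapt 1.18 and Bowtie2 2.4.2 were used. Their settings, the genome build, the region counted and the use of strand are not given in the sources used here. Names were matched to GENCODE M21 (GRCm38), and promoters to RefSeq. Groups and replicate numbers came from the titles. Counts were fitted with edgeR 4.0.16 in R 4.3.3 (filterByExpr with a minimum count of 10, TMM, glmQLFit and glmQLFTest, Benjamini-Hochberg over all features, threshold 0.05), and with DESeq2 1.42.0 as an alternative. RNA and RPF fits used 6 libraries and a genotype term, TE used 12 libraries and the interaction of assay and genotype, and the ratio of RPF to RNA used the 6 libraries of a genotype. CPM used TMM sizes within an assay and a factor per assay (1.818 for RNA, 0.5794 for RPF) that puts both on the TMM scale of all 12 libraries. Reads carry no molecular identifiers in the tables, so floors cover counting error only. The fits were tested on simulated data. RNA and RPF libraries of the same number correlated, as deviations from group means, at 0.106, 0.11 and 0.122 in KO and at 0.0774, 0.153 and 0.0764 in WT. The labels do not state that they share a heart, and by these correlations only the KO libraries met the criterion for pairing (above 0.1 in every pair). Correlations of libraries with unlike numbers are not given here, so these values cannot decide whether the libraries share a heart. The reported fits have no replicate block, and the block was run as an alternative in both genotypes.

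The members and lists were chosen with earlier results of these data known. Values by library were given, in the assays concerned, for *Grwd1*, the polymerase I and PeBoW genes, *Ncl*, *Npm1* and *Fbl*, for the 3 members with the lowest p in each direction in RNA, RPF and TE, and for the 5 called members with the highest and the 5 with the lowest ratio in WT. *Mybbp1a*, *Lsg1*, *Rrs1* and *Utp20* in the genotype comparisons were named after their values were seen, as were single genes of the further pathway lists and members named by role with a ratio alone.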

Additional observations from a re-analysis of the deposited data

How the results depend on the processing

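Alternatives were DESeq2, median-of-ratios scaling, a mean count of 50 or more, the omission of the low-count filter or of mitochondrial transcripts, a replicate block, scaling within each assay (TE) and leaving out each library number. No member was called between genotypes under any of them. Of 165 counts and medians, 134 kept their direction and side of the threshold or moved little. The count at an unadjusted p below 0.05 in RNA was 2 without the filter, 2 with the replicate block and 0 to 5 as libraries were left out. In RPF it was 2 with the replicate block and 1 to 4 as libraries were left out. In TE it was 1 under DESeq2, median-of-ratios scaling, a mean count of 50 or more, the replicate block and scaling within each assay, and 0 to 5 as libraries were left out. Shares of all features at such a p are not given here for these alternatives. The TE median ran from -0.06 to 0.12 as libraries were left out. Members called higher in RPF than RNA in WT numbered 5 without the filter, and the share of all features in that fit is not given here. The median ratio in WT was -0.57 without the filter and 0.01 with a mean count of 50 or more, where 35 members remained. In KO it was -0.21 under median-of-ratios scaling and DESeq2, -0.48 without the filter, -0.07 with a mean count of 50 or more, and -0.23 to -0.07 as libraries were left out. Without the filter the median of all features was 0.15 in both genotypes. Of 436 values of named genes, 433 were unchanged in direction and call. Many of these genes were named for their p or ratio in the main fit, so a kept direction and call is little test of them. Sizes moved more, with *Rrp12* in RPF from -0.67 to -0.11 and *Nip7* in RPF from 0.20 to 0.68. *Grwd1* turned to 0.36 in RNA (range -0.49 to 0.36) and -0.24 in TE (range -0.24 to 0.89) without WT 3, and its ratio in WT was then 1.45 (adjusted p = 0.0186, edgeR's quasi-likelihood test), called, with adjusted p up to 0.617 elsewhere. The causes were not tested. Same-numbered WT and KO libraries did not deviate together in every pair (-0.203, 0.358 and 0.405 in RNA, 0.0617, 0.0285 and 0.00409 in RPF), so they were not treated as paired. Low RNA depth limits *Tsr1*, *Rrs1*, *Nip7* and *Grwd1* most.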

Other observations

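Some snoRNP and nucleolar genes varied more between libraries of a genotype than between genotypes in RNA. *Dkc1* RNA was 56.6, 58.8 and 25.5 CPM in WT 1 to 3 and 31.2, 61.8 and 30.6 in KO 1 to 3, and *Nolc1* RNA was 53.9, 49.1 and 30.7 and 32.8, 50.4 and 26.1. *Nhp2* and *Nop56* also had their highest values in WT 1, WT 2 and KO 2, the libraries set apart by the first principal component (-18.5, -14.7 and -16.2, against 14.3 to 19.6). *Wdr43* and *Nop14* RNA, described above, had the same highest libraries. *Dkc1* footprints were 12, 10.8 and 10.3 CPM in WT and 8.90, 10.7 and 8.01 in KO, and did not show the same spread. These genes were chosen after their values were seen, and the source of the spread was not tested.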
